A study of Mus musculus with 61 samples.

Results

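The genes described here are 7 of the 43346 rows of the deposited expression table, chosen by name because their products decide which fast transmitter a neuron releases: Slc17a6, Slc17a7 and Slc17a8, Slc32a1, Slc6a5, Slc18a3 and Chat. RNA had been sequenced from mouse forebrain, midbrain and hindbrain at 8 stages, E10.5 to E16.5 at daily steps and the day of birth (P0), and from liver at 7 stages from E11.5. The 61 libraries (47 from brain, 14 from liver) made pairs for each region and stage, save that a single library represented the E10.5 forebrain. The groups differed by tissue and stage. The labels name no treatment, and they give no genotype, strain or statement on whether embryos were pooled. All 7 genes passed the filter on low values (1 TPM in at least 2 libraries).

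Neurons load transmitter into synaptic vesicles with transporters that are specific to it, and the transporter a neuron makes is a standard marker of its type. Vesicular glutamate transporters VGLUT2, VGLUT1 and VGLUT3 (encoded by Slc17a6, Slc17a7 and Slc17a8) fill vesicles of excitatory neurons. VGLUT1 is best known from cortical and hippocampal projection neurons, VGLUT2 from thalamus and brainstem, and VGLUT3 from scattered neurons, some of which also release another transmitter. VGAT (Slc32a1) loads GABA and glycine into vesicles of inhibitory neurons, and GlyT2 (Slc6a5) takes glycine up into the terminals of glycinergic neurons, which lie mainly in hindbrain and spinal cord. Choline acetyltransferase (Chat) makes acetylcholine and VAChT (Slc18a3) packs it. Their genes form a nested locus, shared by motor neurons and other cholinergic cells.

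Values are TPM, a length-scaled share of the transcripts of a library, so that levels of different genes can be set side by side within a library. Differences were tested on log2(TPM + 1) with limma in 1 fit over 18655 genes, and a gene was called when its Benjamini-Hochberg adjusted p lay below 0.05 and its log2 fold change was at least 1 in size. Folds of genes at low TPM are understated on this scale. In bulk tissue, fewer cells of a type and less RNA per cell cannot be told apart. Nothing in the labels says that the libraries of a group came from separate animals, so p-values measure the spread between these libraries, which may be technical.

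Libraries labelled midbrain and hindbrain at E15.5 went against their labels. Hoxb3, a Hox gene of the posterior hindbrain, stood at 87.6 and 78.0 TPM in the libraries labelled midbrain and at 0.15 and 0.24 TPM in those labelled hindbrain. The summed hindbrain markers (Hoxa2, Hoxb2, Hoxb3, Hoxa5 and Hoxb5) reached 349 to 373 TPM in the former and 0.67 to 1.09 TPM in the latter. At other stages the same sum was 102 to 460 TPM in hindbrain and 0.18 to 7.42 TPM in midbrain. No label was exchanged, and each difference of the 7 genes between brain regions that averages over stages is also given without E15.5. In 4 cases (the E16.5 and P0 pairs of the posterior regions, 1 library in each) the column header and the sample record named different stages. They kept the stage of the header and are called unnumbered. The libraries also fell into 2 classes by the reads assigned to a pair of pseudogenes: all brain libraries of E10.5, E12.5 and E15.5, both of midbrain P0 and the unnumbered one of hindbrain P0 were of class B, and other brain libraries of class A.

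Slc17a6 (ENSMUSG00000030500.5, mm10 chromosome 7, 51622006 to 51671119, plus strand, 12 exon blocks) was the most abundant vesicular transporter RNA of the 7 in midbrain and hindbrain, and Slc17a7 (ENSMUSG00000070570.4, chromosome 7, 45163949 to 45176142, plus strand, 6 exon blocks) was a forebrain gene. The stretches before their first RefSeq start sites (GRCm38.p6, the same assembly as mm10) are shown for 2 reasons. From E11.5 on, forebrain was the lowest region for Slc17a6 and the highest for Slc17a7, although Slc17a6 kept the larger mean share there too. The series was also set up beside a study of DNA methylation, whose target is the CG dinucleotide. Capitals mark CG dinucleotides.

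Slc17a6, chr7:51621580-51621829, plus strand: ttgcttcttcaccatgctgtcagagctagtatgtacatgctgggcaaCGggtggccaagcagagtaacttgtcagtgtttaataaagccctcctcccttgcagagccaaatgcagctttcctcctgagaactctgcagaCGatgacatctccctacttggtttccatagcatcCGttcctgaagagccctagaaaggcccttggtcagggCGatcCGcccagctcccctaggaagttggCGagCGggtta

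Slc17a7, chr7:45163671-45163920, plus strand: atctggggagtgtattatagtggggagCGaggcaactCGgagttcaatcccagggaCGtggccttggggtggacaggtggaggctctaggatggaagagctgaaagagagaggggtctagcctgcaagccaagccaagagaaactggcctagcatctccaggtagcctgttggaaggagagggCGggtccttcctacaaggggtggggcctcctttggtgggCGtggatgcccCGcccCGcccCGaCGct

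The 250 bases of Slc17a6 held 7 CG dinucleotides at 53.2% G and C, and those of Slc17a7 held 9 at 61.2%. Over 32851 RefSeq windows of this length the medians were 6 CG dinucleotides and 52.4%, with the CG counts of the 2 windows at percentiles 53.7 and 59.7 and their G and C shares at percentiles 52.6 and 74.8. Neither held CAGATG (an E-box read by neurogenins and NeuroD), TAATTA (a homeodomain core) or GGACAGC (part of the RE1 element read by the repressor REST) on either strand. These letters occurred in 14.4%, 4.84% and 5.28% of all windows. Slc17a6 has a second RefSeq start, downstream of the first, whose window held CAGATG and TAATTA once each.

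In forebrain, Slc17a6 stood at 3.26 TPM in the single E10.5 library and at 17.8 and 21.6 TPM at E11.5. It then ran through 29.1 and 29.2 TPM at E12.5, 35.1 and 36.0 at E13.5, 39.0 and 45.1 at E14.5, 32.5 and 29.8 at E15.5 and 35.3 and 37.1 at E16.5. At P0 the 2 libraries held 56.6 and 33.9 TPM. After E13.5 the forebrain level thus kept within the range of its own P0 pair, apart from the lower values of E15.5.

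Midbrain went further. Its Slc17a6 values were 8.04 and 5.67 TPM at E10.5, 28.4 and 27.2 at E11.5, 43.8 and 47.0 at E12.5, 63.9 and 62.4 at E13.5 and 75.8 and 72.7 at E14.5. They were 103 and 113 TPM at E16.5 and 131 and 134 TPM at P0, the second of each being the unnumbered library. Both libraries labelled midbrain at E15.5 were at 76.2 TPM. Libraries of consecutive stages did not overlap from E10.5 to E14.5, nor from E16.5 to P0 with the stages of the headers.

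In hindbrain the values were 8.40 and 4.64 TPM at E10.5, 30.8 and 28.3 at E11.5, 32.7 and 31.2 at E12.5, 54.5 and 56.6 at E13.5 and 74.3 and 67.5 at E14.5. At E16.5 they were 96.3 and 118 TPM (unnumbered) and at P0 99.6 and 96.3 TPM (unnumbered). The libraries labelled hindbrain at E15.5 held 81.7 and 84.4 TPM. With the stages of the headers, E16.5 and P0 thus overlapped in hindbrain and not in midbrain. With those of the sample records, the midbrain pairs (103 and 134 TPM, then 131 and 113 TPM) overlapped. The hindbrain pairs (96.29 and 96.35 TPM, then 99.6 and 118 TPM) did not. The midbrain libraries were of class A at E16.5 and of class B at P0 by the headers, so stage and class cannot be told apart there.

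**Figure D1:**
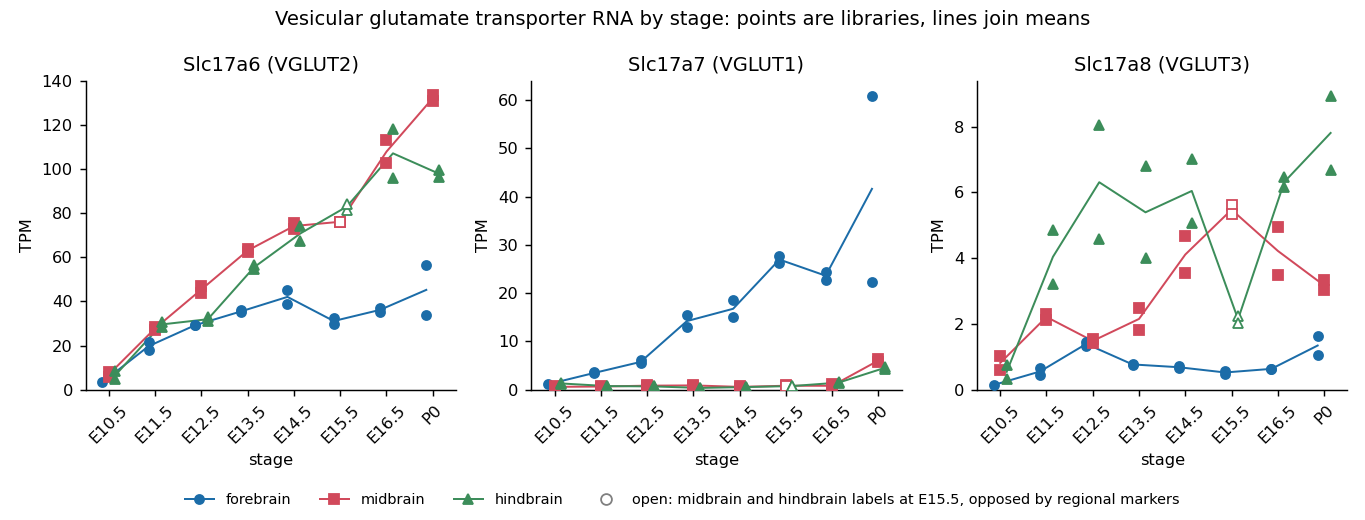
TPM of the 3 vesicular glutamate transporter genes against stage, with 1 point per library, lines through the means of each brain region and a separate vertical scale for each gene. Slc17a6 reached 131 and 134 TPM in midbrain at P0 against 56.6 and 33.9 TPM in forebrain, Slc17a7 exceeded 2 TPM outside forebrain only at P0, and open symbols mark the libraries labelled midbrain and hindbrain at E15.5.

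Slc17a7 showed the opposite regional order. Forebrain libraries held 1.1 TPM at E10.5, 3.36 and 3.54 at E11.5, 5.42 and 6.04 at E12.5, 12.96 and 15.4 at E13.5 and 18.5 and 14.96 at E14.5. They held 27.6 and 26.3 TPM at E15.5, 24.4 and 22.8 at E16.5 and 22.3 and 60.9 at P0. In midbrain every library up to E16.5 lay between 0.37 and 1.19 TPM, and the P0 pair stood at 6.42 and 5.63 TPM. Hindbrain libraries lay between 0.33 and 1.62 TPM up to E16.5, with 1.25 and 1.29 TPM at E10.5, and at 4.77 and 4.24 TPM at P0. Both posterior regions thus stayed at or below 1.62 TPM through the fetal series and were higher at P0.

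Slc17a6 and Slc17a7 were compared between regions on the average over E11.5 to P0 (14 libraries a region). Mean Slc17a6 was 34.1 TPM in forebrain, 75.3 TPM in midbrain and 68.0 TPM in hindbrain. Forebrain was lower than midbrain by a log2 fold change of -1.02 ± 0.06 (SE; limma adjusted p = 1.18e-16) and this was called, just past the threshold. Against hindbrain the difference was -0.88 ± 0.06 (limma adjusted p = 4.57e-15), below the fold threshold and not called. Without E15.5 these values were -0.97 and -0.79, so the call against midbrain ended. Among class A stages alone (E11.5, E13.5, E14.5 and E16.5) the difference from midbrain was -0.91, and at E12.5, all class B, it was -0.62, neither called. At each of 7 of 7 stages both forebrain libraries lay below both midbrain libraries and below both hindbrain libraries. Midbrain and hindbrain differed by 0.14 ± 0.06 (limma adjusted p = 0.07), and by 0.18 without E15.5. Their libraries overlapped at 3 of 7 stages, and E15.5 was the only stage with both libraries labelled hindbrain above both labelled midbrain.

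Mean Slc17a7 over the same stages was 18.9 TPM in forebrain, 1.49 TPM in midbrain and 1.27 TPM in hindbrain. Forebrain was higher than midbrain by 2.87 ± 0.08 (limma adjusted p = 2.71e-25) and higher than hindbrain by 2.94 ± 0.08 (limma adjusted p = 6.01e-26), without overlap at 7 of 7 stages, and by 2.69 and 2.76 without E15.5. Midbrain and hindbrain differed by 0.07 ± 0.08 (limma adjusted p = 0.601), and by 0.07 without E15.5. Forebrain therefore combined the lowest Slc17a6 with the highest Slc17a7 at every stage from E11.5 on.

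Expressed as a share of the summed TPM of the 3 glutamate transporters, Slc17a7 made up 14.6% in forebrain at E11.5 (mean of 2 libraries), 28.1% at E13.5, 46.0% at E15.5, 39.1% at E16.5 and 45.5% at P0. In midbrain the mean share was at most 2.06% from E11.5 to E16.5 and 4.26% at P0. Hindbrain went from 16.3% at E10.5, where the summed TPM was only 8.33, to at most 2.12% from E11.5 to E16.5 and 4.08% at P0. Slc17a6 made up 53.0% in forebrain at P0, 93.5% in midbrain and 88.8% in hindbrain.

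The forebrain libraries of P0 differed in opposite directions for the 2 genes. Replicate 1 held 56.6 TPM of Slc17a6 and 22.3 TPM of Slc17a7, and replicate 2 held 33.9 and 60.9 TPM, so that the share of Slc17a7 was 27.9% in the first and 63.2% in the second. Tbr1 and Emx1, transcription factor genes of the developing cortex, stood at 43.8 and 15.03 TPM in replicate 1 and at 70.3 and 18.6 TPM in replicate 2. Of the other forebrain markers, Lhx2 stood at 58.6 and 60.1 TPM and Six3 at 11.7 and 9.71 TPM in replicates 1 and 2. Their part in the difference was not tested. The 6 forebrain pairs of E11.5 to E16.5 differed by at most 1.22-fold in Slc17a6 and at most 1.24-fold in Slc17a7, against 1.67-fold and 2.73-fold in the P0 pair.

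At P0 alone, forebrain stood below midbrain for Slc17a6 by -1.57 ± 0.16 (limma adjusted p = 1.82e-09) and below hindbrain by -1.14 ± 0.16 (limma adjusted p = 5.12e-07), and above them for Slc17a7 by 2.44 ± 0.22 (limma adjusted p = 1.29e-10) and 2.79 ± 0.22 (limma adjusted p = 1.83e-12). The hindbrain difference of Slc17a6 was -0.78 and not called without forebrain replicate 2. At P0 the forebrain libraries were of class A and the midbrain libraries of class B, so region and class cannot be told apart in that pair. From E11.5 to P0, Slc17a6 rose by 1.12 ± 0.16 in forebrain, 2.21 ± 0.16 in midbrain and 1.70 ± 0.16 in hindbrain. The forebrain rise was 0.76 without P0 replicate 1 and 0.99 without E11.5 replicate 1, neither called. Slc17a7 rose by 3.09 ± 0.22, 2.11 ± 0.22 and 1.68 ± 0.22 in the same order. Midbrain was of class A at E11.5 and of class B at P0, so stage and class cannot be told apart in the rise of any gene there.

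The steps between neighbouring stages were compared next. Slc17a6 rose from E10.5 to E11.5 in forebrain, midbrain and hindbrain, by 2.28, 1.89 and 2.07 (4.85%, 3.98% and 6.13% of all genes were called higher there), and in no later step between neighbouring stages was it called. Brain libraries of E10.5 were all of class B and those of E11.5 all of class A. Stage and class therefore cannot be told apart in the step from E10.5. In forebrain Slc17a7 also rose from E10.5 to E11.5, by 1.08 ± 0.26 from the single E10.5 library (limma adjusted p = 0.00127), and again from E12.5 to E13.5, by 1.17 ± 0.22 (limma adjusted p = 5.54e-05, 2.02% of all genes called higher). The first of these was not called at 0.89 with median-of-ratios scaling or at 0.81 with quantile normalization. With forebrain libraries fitted alone it was 1.08 and not called (limma adjusted p = 0.0924). The stages of the sample records also gave 1.08, not called (limma adjusted p = 0.144). Neither rise was called with library class as a covariate, at 0.94 and 1.03. That term rests on the hindbrain P0 pair, the only group with both classes. Both forebrain steps run from class B to class A, so the covariate does not separate stage from class there. Slc17a7 in midbrain and hindbrain rose in the last step, E16.5 to P0, by 2.02 ± 0.22 (limma adjusted p = 9.84e-09) and 1.18 ± 0.22 (limma adjusted p = 0.000129). All genes tested were called in either direction at rates of 2.84% and 1.24% in those 2 steps. The class A library of hindbrain P0 held 4.77 TPM and the class B library 4.24 TPM, both above the E16.5 libraries, which were of class A. In midbrain both E16.5 libraries were of class A and both P0 libraries of class B, so stage and class cannot be told apart there. With the unnumbered libraries given the stage of their sample record, the steps were 0.42 and -0.04 and neither was called. Which stage is right for those libraries was not tested. Forebrain showed 0.63 ± 0.22 in that step, not called, with its P0 libraries on either side of the E16.5 pair.

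RNA of neurons as such increased over these stages. The summed TPM of 5 neuron markers (Tubb3, Stmn2, Snap25, Elavl3 and Map2, all found) went in forebrain from 1208 and 1233 at E11.5 to 4925 and 5409 at P0, in midbrain from 1723 and 1832 to 5715 and 5741, and in hindbrain from 2149 and 2303 to 4692 and 4754. Per 1000 TPM of these markers, forebrain Slc17a6 stood at 14.4 and 17.9 TPM at E11.5 and had a mean of 8.88 TPM at P0, with no overlap between the stages. Midbrain Slc17a6 stood at 15.51 and 15.8 TPM at E11.5 and 22.9 and 23.3 TPM at P0, and hindbrain at 13.2 and 13.4 TPM and then 20.3 and 21.2 TPM. Set against neuron markers, the direction from E11.5 to P0 was thus downward in forebrain and upward in both posterior regions. The single E10.5 forebrain library, at 8.04 TPM, lay between the forebrain P0 values. At E14.5 the forebrain ratios (13.7 and 15.25) lay below every midbrain (15.45 and 15.9) and hindbrain (16.2 and 18.2) library of that stage, and from E15.5 on each forebrain ratio lay below the lowest value of the others (14.6). These ratios are descriptions with no test.

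**Figure D2:**
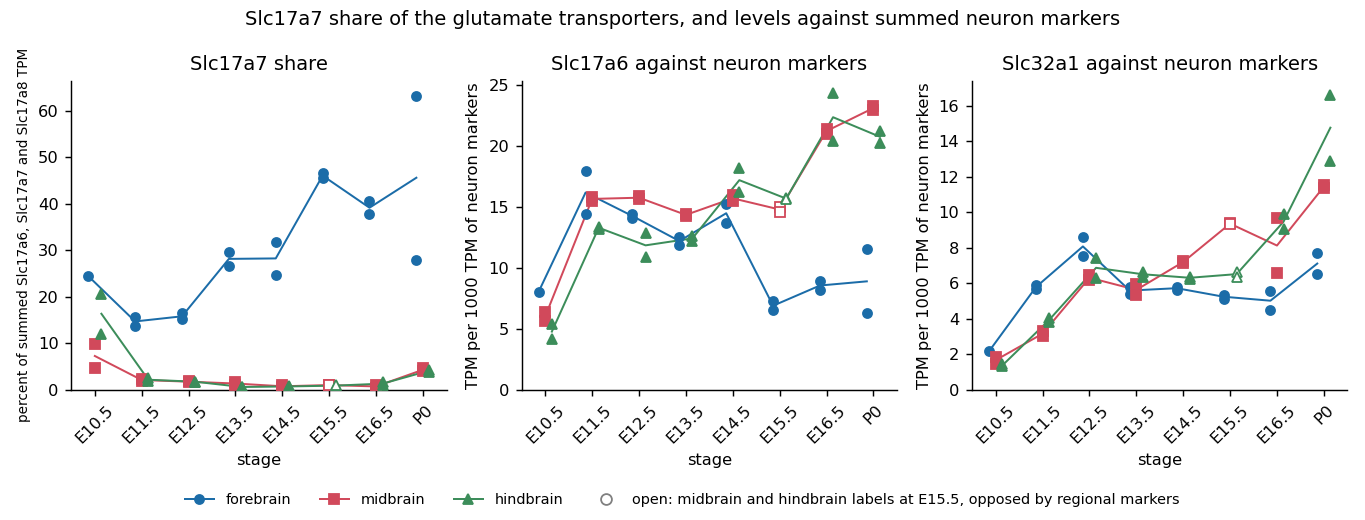
Left, Slc17a7 as a percentage of the summed TPM of Slc17a6, Slc17a7 and Slc17a8; middle and right, Slc17a6 and Slc32a1 per 1000 TPM of 5 summed neuron markers, by stage, with 1 point per library and lines through the means. The mean Slc17a7 share in forebrain went from 14.6% at E11.5 to 46.0% at E15.5 and 45.5% at P0, where the libraries were at 27.9% and 63.2%, no midbrain or hindbrain library after E10.5 exceeded 4.56%, and forebrain Slc17a6 per neuron marker lay below the other regions from E14.5.

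Slc17a8 (ENSMUSG00000019935.12, chromosome 10, 89574020 to 89621253, minus strand) stood below Slc17a6 at every stage of each brain region, with its highest levels in hindbrain. Its mean share of the summed glutamate transporters reached 3.83% in forebrain (E12.5), 9.72% in midbrain (E10.5) and 16.1% in hindbrain (E12.5). In hindbrain its mean exceeded that of Slc17a7 at each stage from E11.5 to P0. Forebrain libraries held 0.14 to 1.62 TPM, midbrain libraries 0.61 to 4.95 TPM and hindbrain libraries 0.32 to 8.95 TPM outside E15.5. At E15.5 the libraries with the midbrain label held 5.62 and 5.33 TPM and those labelled hindbrain 2.25 and 2.03 TPM. In hindbrain it rose from 0.76 and 0.32 TPM at E10.5 to 4.87 and 3.21 TPM at E11.5 and stood at 6.67 and 8.95 TPM (unnumbered) at P0. Forebrain was lower than midbrain by -1.16 ± 0.07 (limma adjusted p = 6.52e-16) and lower than hindbrain by -1.75 ± 0.07 (limma adjusted p = 4.95e-21), at -1.01 and -1.87 without E15.5. The difference from midbrain was not called with quantile normalization (-0.965) or at E12.5 alone (-0.05, limma adjusted p = 0.902). Midbrain against hindbrain stood at -0.59 ± 0.07, and at -0.86 without E15.5, not called in either. Over time P0 against E11.5 gave 0.59 in forebrain, 0.38 in midbrain and 0.81 in hindbrain, none of them called. A pseudocount of 0.1 TPM put forebrain at 1.14, which was called.

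Slc32a1 (ENSMUSG00000037771.11, chromosome 2, 158610767 to 158615748, plus strand, 2 exon blocks) was the inhibitory marker with the least regional difference. An exon of it overlaps the non-coding gene Gm14205 on the other strand. The kit keeps strand, but the sources used here do not say whether the counting used it. Forebrain libraries went from 0.88 TPM at E10.5 and 7.01 and 7.11 at E11.5 to 15.2 and 17.9 at E12.5, then through 15.9 to 16.7 TPM at E13.5 and E14.5 to 18.6 to 24.04 TPM at E15.5 and E16.5 and 37.9 and 35.3 TPM at P0. Midbrain held 2.33 and 1.48 TPM at E10.5, 5.50 and 5.69 at E11.5, 17.3 and 19.2 at E12.5, 23.8 and 25.7 at E13.5, 34.6 and 33.5 at E14.5, 32.2 and 51.1 (unnumbered) at E16.5 and 65.9 and 65.2 (unnumbered) at P0. Hindbrain held 2.20 and 1.47 TPM, 8.77 and 8.71, 16.1 and 21.4, 28.4 and 29.8, 26.0 and 26.1, 42.7 and 48.2 (unnumbered), and 60.6 and 79.1 TPM (unnumbered) at the same stages. At E15.5 the libraries labelled midbrain held 47.9 and 48.6 TPM and those labelled hindbrain 34.6 and 34.4 TPM. All regions held 15.2 to 21.4 TPM at E12.5, and from E13.5 every forebrain library was below those of midbrain and hindbrain at the same stage.

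On the average over stages, forebrain stood at -0.59 ± 0.05 against midbrain and -0.62 ± 0.05 against hindbrain, under the fold threshold, and midbrain against hindbrain at -0.03 ± 0.05 (limma adjusted p = 0.745). Without E15.5 these were -0.52, -0.64 and -0.11. From E11.5 to P0, Slc32a1 rose by 2.22 ± 0.14 in forebrain (limma adjusted p = 8.09e-16), 3.34 ± 0.14 in midbrain (limma adjusted p = 8.45e-21) and 2.85 ± 0.14 in hindbrain (limma adjusted p = 1.10e-18). The midbrain rise exceeded the forebrain rise by 1.12 on the log2 scale, and that difference was itself called (1.73% of all genes were called lower in forebrain minus midbrain). Per 1000 TPM of neuron markers, Slc32a1 went from 5.69 and 5.89 TPM at E11.5 to 6.53 and 7.69 TPM at P0 in forebrain, from 3.003 and 3.30 to 11.4 and 11.53 TPM in midbrain and from 3.81 and 4.05 to 12.9 and 16.6 TPM in hindbrain. The summed glutamate transporters exceeded Slc32a1 in every region and stage, with mean ratios from 1.6 (hindbrain P0) to 5.47 (midbrain E11.5). In each region the ratio at P0 (2.42, 2.16 and 1.6 in forebrain, midbrain and hindbrain) was below that at E11.5 (3.35, 5.47 and 3.92).

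Slc6a5 (ENSMUSG00000039728.10, chromosome 7, 49910146 to 49963856, plus strand, 17 exon blocks) was the most regional of the 7. Hindbrain libraries held 1.91 and 0.65 TPM at E10.5, 10.6 and 10.5 at E11.5, 9.93 and 13.9 at E12.5, 15.9 and 16.1 at E13.5, 14.9 and 15.9 at E14.5, 24.1 and 31.3 (unnumbered) at E16.5 and 39.6 and 39.7 (unnumbered) at P0. No forebrain library exceeded 0.17 TPM. Midbrain libraries outside E15.5 held 0.02 to 1.92 TPM. At E15.5 those with the midbrain label held 21.2 and 22.6 TPM and those labelled hindbrain 0.59 and 0.61 TPM, which is the pattern of the Hox markers in the same libraries. Relative to Slc32a1, Slc6a5 amounted to 55.0% to 120% in hindbrain by stage means outside E15.5, to 1.17% to 4.23% in midbrain and to at most 1.14% in forebrain.

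Forebrain was lower than hindbrain by -3.69 ± 0.06 (limma adjusted p = 1.96e-32) and midbrain lower than hindbrain by -2.53 ± 0.06 (limma adjusted p = 2.39e-27). Without E15.5 these were -4.20 and -3.596. The called difference between forebrain and midbrain, -1.16 ± 0.06, rested on the E15.5 libraries and was -0.61, not called, without them. At P0 hindbrain stood above forebrain by 5.29 and above midbrain by 4.30 on the log2 scale (forebrain minus hindbrain -5.29 ± 0.16, limma adjusted p = 2.18e-23; midbrain minus hindbrain -4.30 ± 0.16, limma adjusted p = 6.88e-21). In hindbrain Slc6a5 rose by 1.82 ± 0.16 from E11.5 to P0 (limma adjusted p = 1.65e-12), against 0.91 ± 0.16 in midbrain and 0.05 ± 0.16 in forebrain, neither called. Without the unnumbered libraries midbrain was at 1.02 and called. It was also called with a pseudocount of 0.5 TPM (1.38) or 0.1 TPM (2.54). Mean Slc6a5 went from 0.1 to 1.07 TPM in midbrain and from 10.54 to 39.64 TPM in hindbrain. The proportional rise was thus larger in midbrain, at far lower levels. Per 1000 TPM of neuron markers the hindbrain libraries held 4.58 and 4.90 TPM at E11.5 and 8.36 and 8.43 TPM at P0.

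Chat (ENSMUSG00000021919.7, chromosome 14, 32408203 to 32465989, minus strand, 17 exon blocks) and Slc18a3 (ENSMUSG00000100241.1, chromosome 14, 32462438 to 32464850, minus strand, 1 exon) share a locus. Slc18a3 lies whole inside the first part of Chat on the same strand, and no exon of one overlaps an exon of the other, and whether reads of unspliced Chat RNA were counted for Slc18a3 was not tested. The stretches before both RefSeq start sites are shown because these genes correlated at 0.98 over the means of brain region and stage while the stretches differ. Within hindbrain they moved less alike: from E11.5 to P0 mean Slc18a3 went from 3.35 to 9.615 TPM and mean Chat from 1.3 to 1.93 TPM. That of Chat is 170 bases long, since the other 80 bases of its window are exon in the annotation.

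Slc18a3, chr14:32464851-32465100, minus strand: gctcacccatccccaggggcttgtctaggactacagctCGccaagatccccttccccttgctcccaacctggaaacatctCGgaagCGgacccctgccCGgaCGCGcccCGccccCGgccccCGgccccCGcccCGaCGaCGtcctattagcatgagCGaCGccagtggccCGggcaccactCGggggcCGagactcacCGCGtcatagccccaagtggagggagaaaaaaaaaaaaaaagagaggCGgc

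Chat, chr14:32465990-32466159, minus strand: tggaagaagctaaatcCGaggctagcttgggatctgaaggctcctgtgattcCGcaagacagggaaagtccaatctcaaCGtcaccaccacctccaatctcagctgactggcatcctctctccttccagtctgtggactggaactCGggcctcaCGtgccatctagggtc

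The Slc18a3 window held 21 CG dinucleotides at 66.0% G and C, more than 83.7% of all windows of its length, and the shorter Chat window held 5 at 54.7%. None of the 3 motifs searched in the Slc17a6 and Slc17a7 windows occurred in either. Part of the Slc18a3 window also belongs to an exon of the non-coding gene Gm2990 on the other strand.

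Slc18a3 in hindbrain stood at 1.78 and 1.52 TPM at E10.5, 3.33 and 3.37 at E11.5, 2.61 and 3.6 at E12.5, 7.20 and 6.36 at E13.5, 3.43 and 4.78 at E14.5, 6.25 and 8.0 (unnumbered) at E16.5 and 8.57 and 10.7 (unnumbered) at P0. Midbrain libraries outside E15.5 held 0.20 to 1.74 TPM and forebrain libraries 0.02 to 1.05 TPM. At E15.5 the libraries labelled midbrain held 11.8 and 8.46 TPM and those labelled hindbrain 0.92 and 0.70 TPM. Forebrain was lower than hindbrain by -1.98 ± 0.06 (limma adjusted p = 5.27e-25) and midbrain lower than hindbrain by -1.25 ± 0.06 (limma adjusted p = 2.24e-18), or -2.26 and -1.89 without E15.5. Forebrain and midbrain stood -0.73 ± 0.06 apart, -0.37 without E15.5. From E11.5 to P0 it rose in hindbrain by 1.28 ± 0.16 (limma adjusted p = 6.36e-09), with 0.90 in midbrain and 0.81 in forebrain not called. Those 2 depended on the pseudocount. Mean Slc18a3 went from 0.295 to 1.435 TPM in midbrain and from 0.05 to 0.855 TPM in forebrain. With a pseudocount of 0.5 TPM in place of 1 the rises were 1.27 and 1.29, and with 0.1 TPM 1.96 and 2.64, all called. Without the unnumbered libraries midbrain was at 1.08 and called.

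Chat ran at lower TPM with the same order of regions. Hindbrain libraries held 0.51 and 0.37 TPM at E10.5, 1.17 and 1.43 at E11.5, 1.22 and 1.5 at E12.5, 2.02 and 1.66 at E13.5, 1.43 and 1.97 at E14.5, 1.86 and 2.52 (unnumbered) at E16.5 and 1.79 and 2.07 (unnumbered) at P0. Midbrain libraries outside E15.5 held 0.02 to 0.48 TPM and forebrain libraries at most 0.33 TPM, and at E15.5 the midbrain-labelled pair held 2.68 and 2.29 TPM against 0.23 and 0.25 TPM in those labelled hindbrain. Forebrain was lower than hindbrain by -1.05 ± 0.04 (limma adjusted p = 1.41e-23), at -1.23 without E15.5, and -0.90 with columns scaled by median-of-ratios and -0.75 with quantile normalization, which both end the call. Midbrain against hindbrain was -0.74 ± 0.04 and not called with E15.5 and -1.11 and called without it. Chat was called in no region from E11.5 to P0, at 0.38, 0.34 and 0.35 in forebrain, midbrain and hindbrain. Means went from 0.015 to 0.32 TPM, 0.07 to 0.355 TPM and 1.3 to 1.93 TPM in that order. With a pseudocount of 0.1 TPM in place of 1, forebrain (1.88) and midbrain (1.37) were called. In hindbrain Slc18a3 exceeded Chat 2.27-fold to 4.97-fold by stage means, 4.97-fold at P0.

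**Figure D3:**
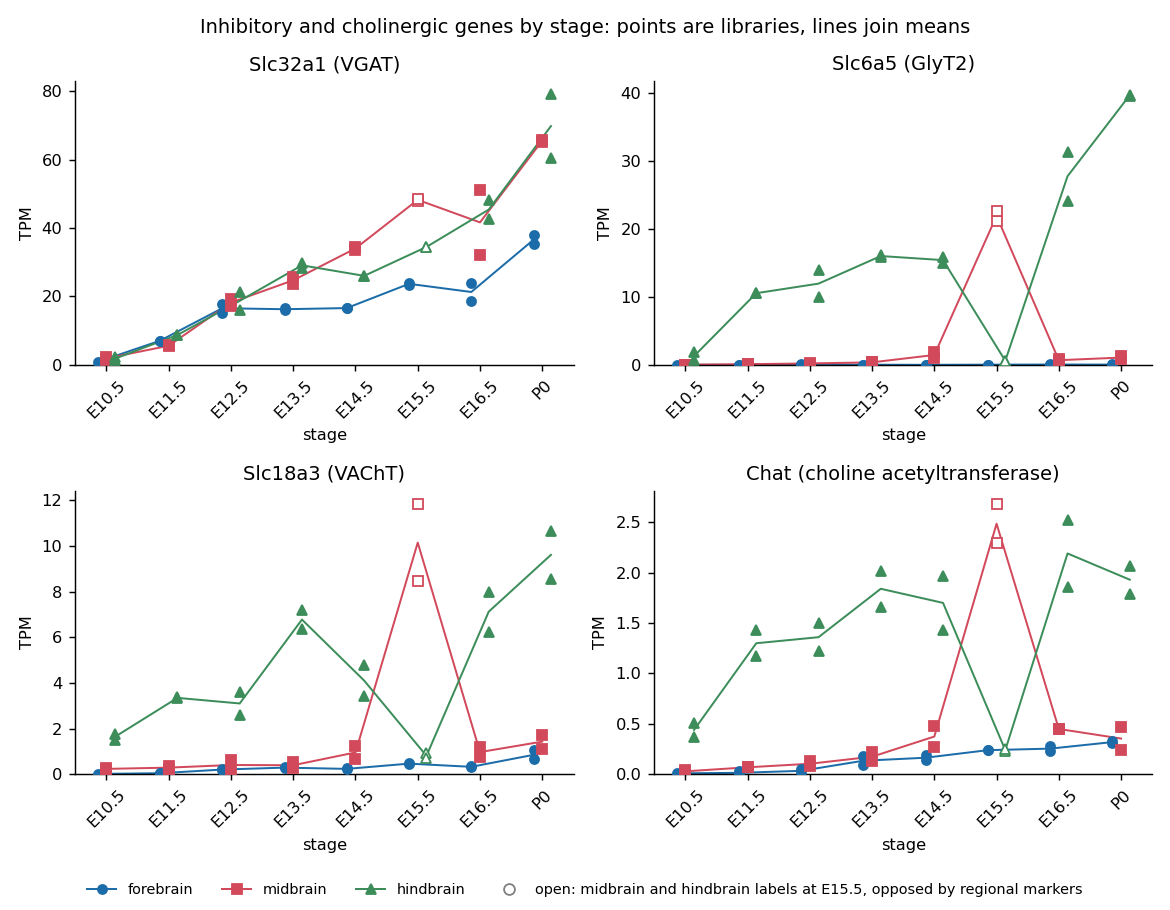
TPM of Slc32a1, Slc6a5, Slc18a3 and Chat against stage, with 1 point per library, lines through the means of each brain region and a separate vertical scale for each gene. Slc32a1 rose in the 3 regions, while Slc6a5, Slc18a3 and Chat were high in hindbrain (39.6 and 39.7 TPM of Slc6a5 at P0) and, at E15.5, in the libraries labelled midbrain (open symbols).

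Markers of peripheral ganglia and cranial motor nuclei were summed in the same libraries. The summed TPM of Prph, Isl1 and Pou4f1 was 71.5 to 265 in hindbrain outside E15.5, 29.5 to 117 in midbrain and 7.1 to 63.02 in forebrain, and 162 to 187 in the libraries with the midbrain label at E15.5. None of the 3 markers was at 0 in midbrain or hindbrain. They differed in their order of regions: at P0 Prph stood at 59.2 and 55.8 TPM in hindbrain, 5.64 and 6.23 TPM in midbrain and 1.59 and 1.75 TPM in forebrain, Isl1 was highest in forebrain (22.7 and 20.3 TPM, against 7.05 and 5.19 TPM in hindbrain), and Pou4f1 was highest in midbrain (20.7 and 22.3 TPM, against 18.2 and 11.6 TPM in hindbrain). Within hindbrain the sum was 83.5 and 88.6 TPM at E11.5 and 72.7 and 84.4 TPM at P0, which overlap, while Slc6a5 and Slc18a3 were higher at P0. The part of ganglia in the regional differences was not tested. Summed markers of muscle reached 234 TPM in hindbrain outside E15.5 against at most 19.4 TPM in forebrain and midbrain. Summed choroid plexus markers (Kl, Folr1, Clic6, Kcne2 and Otx2) reached 296 TPM in midbrain at E10.5, 157 TPM in hindbrain and 110 TPM in forebrain. At P0 the order differed, with 76.3 to 77.7 TPM in midbrain, 98.6 to 100.4 TPM in hindbrain and 57.8 to 77.2 TPM in forebrain. The part of muscle and choroid plexus was not tested either. Liver markers reached 2777 TPM in a library labelled midbrain at E15.5, of which 2770 TPM was Ttr, also a gene of the choroid plexus, with Alb at 3.42 TPM and Afp at 1.37 TPM. Blood markers reached 14707 TPM in a single brain library.

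Counted over the 7 members, regional calls were as follows. Between forebrain and midbrain 4 of 7 members were called (1 higher and 3 lower in forebrain), where 2.73% of all genes were called in either direction, 0.960% higher and 1.77% lower, and without E15.5 2 of 7 were. The median member stood at -0.73 and the median gene at -0.04. Between forebrain and hindbrain 5 of 7 were called (1 higher and 4 lower), against 4.32% of all genes (1.03% higher and 3.28% lower), with medians of -1.05 and -0.06. Between midbrain and hindbrain 2 of 7 were called, both lower in midbrain, against 0.970% of all genes either way and 0.718% lower, with medians of -0.59 and -0.02, and 3 of 7 were called without E15.5. The 7 genes were picked because they are known to mark regional neuron types, so these counts describe them and lend no independent support to a regional role.

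**Figure D4:**
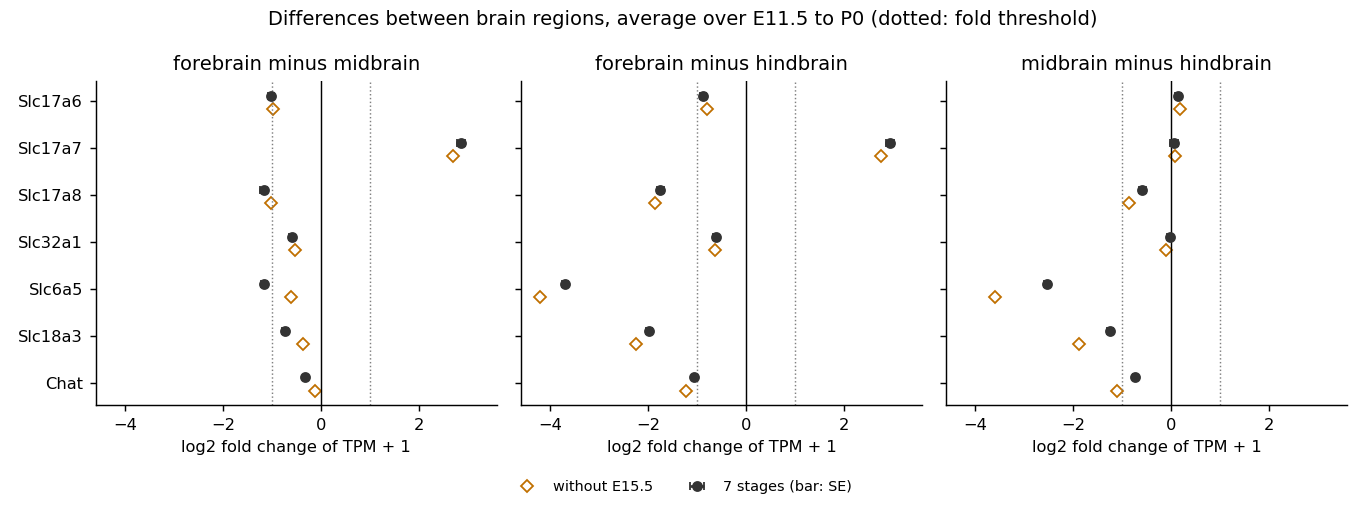
Log2 fold changes of TPM + 1 for the 7 genes between pairs of brain regions, averaged over 7 stages (filled, bars are standard errors, mostly narrower than the symbols) and without E15.5 (open diamonds); dotted lines mark the fold threshold. Slc17a7 is higher in forebrain by 2.87 and 2.94, and Slc6a5 shows the widest gap to hindbrain, which grows from -2.53 to -3.596 in midbrain when E15.5 is left out.

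At P0 alone the counts were 2 of 7 between forebrain and midbrain (background 3.84%), 6 of 7 between forebrain and hindbrain (4.81%) and 4 of 7 between midbrain and hindbrain (2.81%). In the last pair Slc17a8 stood at -1.07 ± 0.19 (limma adjusted p = 6.69e-05), Slc18a3 at -2.13 ± 0.16 (limma adjusted p = 1.01e-12) and Chat at -1.12 ± 0.09 (limma adjusted p = 2.72e-11), beside Slc6a5. Slc17a8 and Chat lost their calls without the unnumbered libraries, at -0.83 and -0.92. From E11.5 to P0 the counts were 3 of 7 in forebrain, 3 of 7 in midbrain and 5 of 7 in hindbrain, all higher at P0, where 19.2%, 18.3% and 16.2% of all genes were called higher. No member was called lower at P0 in a brain region.

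**Figure D5:**
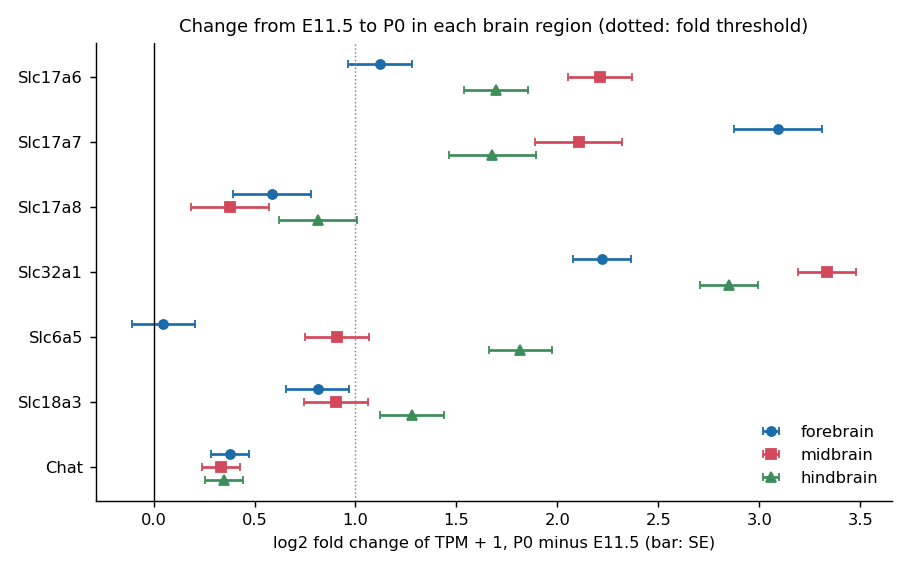
Log2 fold change of TPM + 1 from E11.5 to P0 for the 7 genes in each brain region, with standard errors; the dotted line marks the fold threshold. Slc17a6, Slc17a7 and Slc32a1 passed it in the 3 regions (1.12 to 3.34). Slc6a5 and Slc18a3 passed it in hindbrain (1.82 and 1.28) and stood at 0.91 and 0.90 in midbrain. The midbrain minus hindbrain differences in change, -0.91 and -0.38, were under the fold threshold. Their sign rests on the 1 TPM added: with 0.1 TPM the midbrain rises were 2.54 and 1.96, both called, and in mean TPM the proportional rise was larger in midbrain.

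The genes most like each member over the 24 means of brain region and stage were listed as a description, among 15718 protein-coding genes and with means that share libraries. Slc17a6 was closest to Tmx4 (r = 0.98), Cmas and Dynll2, none of them a transmitter gene. Slc17a7 was closest to Zbtb18 (0.92), a transcriptional repressor of cortical neurons, Mpped1 (0.92) and the histone gene Hist1h2bc (0.91). Slc17a8 was closest to Slc30a3 (0.94), the vesicular zinc transporter, Pld5 (0.94) and Hsdl2 (0.93), and the 3 genes closest to Slc32a1 included Dner and Abca3 (both 0.99). Slc6a5, Slc18a3 and Chat were close to one another: Chat and Slc18a3 at 0.98, Chat and Slc6a5 at 0.98, and Slc6a5 at 0.97 with both Hoxb5 and Hoxa5. Chat stood at 0.97 with Hoxb5, and Slc18a3 at 0.97 with Slc6a5 and 0.95 with Nppc. The pair Slc17a6 and Slc17a7 had r = 0.03, and Slc17a6 and Slc32a1 had 0.96. Without E15.5 these 2 were 0.11 and 0.96.

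Genes that make, take up or break down the same transmitters were counted in the same contrasts. Between forebrain and hindbrain 1.03% of all genes were called higher and 3.28% lower, and 1 gene of a short list is too few to set against these shares. Of 11 glutamate synthesis and uptake genes, 1 was called lower and none higher in forebrain against hindbrain (list median -0.38). Of 8 GABA genes 2 were lower (-0.53). Of 7 glycine genes 2 were lower and 1 higher (-0.06), the called lower ones including Slc6a9, the GlyT1 transporter, at 8.91 TPM in forebrain and 25.0 TPM in hindbrain (-1.31 ± 0.06). Of 6 tested acetylcholine genes 2 were lower (-0.69). These were Slc5a7, the choline uptake transporter of cholinergic terminals, at 0.77 and 6.16 TPM (-1.86 ± 0.04), and Ache, acetylcholinesterase, at 8.47 and 25.0 TPM (-1.65 ± 0.07).

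Monoamine genes had 4 of 13 members lower in forebrain than in hindbrain (-0.56), led by the serotonin transporter Slc6a4 (-2.50 ± 0.09), Dbh, which makes noradrenaline (-2.23 ± 0.06), and Tph2, the neuronal enzyme of serotonin synthesis (-2.08 ± 0.08). Of 12 genes for the vesicle proton pump and other vesicle transporters 2 were lower (-0.60), Slc30a3 (-2.84 ± 0.05) and the vesicle protein gene Sv2c (-2.36 ± 0.06). Of 4 tested relatives in the SLC17 and SLC18 families none was called in this contrast by limma, nor were any at E11.5 against P0 in a brain region. Every named value of this pair kept its call without E15.5.

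Changes over time are read against 19.2%, 18.3% and 16.2% of all genes called higher at P0 than at E11.5 in forebrain, midbrain and hindbrain, and 11.8%, 15.1% and 11.8% called lower. From E11.5 to P0, 6 of the 8 GABA genes rose in forebrain, 7 in midbrain and 7 in hindbrain (list medians 1.55, 2.15 and 1.86, where the median gene stood at 0.02, -0.01 and -0.02). In forebrain Slc6a11, a GABA transporter known from astrocytes, went from 0.88 to 91.2 TPM (5.62 ± 0.19) and Slc6a13 from 0.74 to 26.2 TPM (3.96 ± 0.25). Gad2, a GABA-synthesising enzyme gene, stood at 15.7 and 26.1 TPM in forebrain (0.72 ± 0.17) and was not called there. In hindbrain Slc6a11 rose by 6.71 and Slc6a13 by 3.67.

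In the glutamate list 4, 4 and 6 of 11 rose in forebrain, midbrain and hindbrain (medians 0.75, 0.56 and 1.16). Slc1a1, the neuronal glutamate uptake transporter, rose by 4.72 in forebrain and 4.22 in hindbrain, Slc1a6 by 2.33 and 4.02 and the astrocyte and radial glial transporter Slc1a3 by 2.33 and 3.06. The vesicle pump list had 9 of 12 higher in each region (medians 1.69, 1.77 and 1.44), with Sv2a, Sv2b and the pump subunit Atp6v0a1 at 3.62, 3.33 and 2.02 in forebrain. The glycine list was split: 2 rose and 4 fell of 7 in forebrain, 2 and 3 in midbrain and 2 and 1 in hindbrain (medians -1.18, -0.80 and -0.34). In hindbrain Slc7a10 and Slc6a9, both transporters, rose by 4.35 and 3.05, and Shmt1, of one-carbon metabolism, fell by 2.12. The acetylcholine list had 1, 1 and 2 of 6 higher (medians 0.37, -0.33 and 0.37), with Ache at 3.71 and Slc5a7 at 1.45 in hindbrain, and the monoamine list 3 higher and 1 lower of 13 in forebrain, 6 higher in midbrain and 7 higher in hindbrain (medians 0.47, 0.96 and 1.07).

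Transcription factors that assign transmitter type divided by region in both directions. Of 16 glutamatergic selectors 6 were higher and 6 lower in forebrain against hindbrain (median 0.20). Tbr1 and Eomes, of cortical excitatory neurons, stood at 87.4 against 2.03 TPM (5.06 ± 0.17) and 60.5 against 4.44 TPM (3.97 ± 0.11), and Pou4f1, of brainstem and sensory neurons, at 2.24 against 32.5 TPM (-3.34 ± 0.08). Of 17 inhibitory selectors 6 were higher and 8 lower (-0.35): Dlx1 and Dlx2, of ventral forebrain interneurons, at 4.82 ± 0.21 and 4.07 ± 0.14, and Pax2, of hindbrain and spinal inhibitory neurons, at -3.90 ± 0.04. Slc32a1, whose product serves both sets of neurons, stood at -0.62 in the same contrast.

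Of 10 tested cholinergic selectors 2 were higher and 5 lower in forebrain against hindbrain (-0.98). Lhx8 and Nkx2-1, of basal forebrain cholinergic neurons, stood at 20.8 against 0.79 TPM (3.58 ± 0.12) and 24.6 against 1.64 TPM (3.64 ± 0.12), in a region where no library held more than 0.33 TPM of Chat. In hindbrain 5 of the 10 fell from E11.5 to P0 and none rose (median -1.01, with 11.8% of all genes called lower), among them Isl2 (-3.06 ± 0.21), Isl1 (-2.24 ± 0.25) and Lhx4 (-2.07 ± 0.19), while Slc18a3 rose and Chat held 1.17 to 2.52 TPM from E11.5 outside E15.5. Isl1 and Pou4f1 also stand in the ganglia marker list. In forebrain 1 rose and 1 fell, and in midbrain 1 fell (medians -0.01 and -0.37). The glutamatergic list had 2 higher and 6 lower of 16 in forebrain over the same interval, 4 and 5 in midbrain and 6 and 7 in hindbrain, and the inhibitory list 1 and 5 of 17, 2 and 3, and 0 and 7.

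Liver was the tissue with little neuronal RNA. The neuron markers summed to 3.57 to 34.7 TPM there, and Slc17a6, Slc17a7, Slc32a1, Slc6a5, Slc18a3 and Chat reached at most 0.39, 0.11, 0.17, 0.05, 0.03 and 0.02 TPM in any of the 14 liver libraries. Against liver the brain average was called higher for 6 of 7 members, from 1.30 ± 0.05 (Slc18a3) to 5.64 ± 0.05 (Slc17a6), where 44.0% of all genes were called higher and the median gene stood at 0.82. Chat stood at 0.67 ± 0.03 and was not called. Median-of-ratios scaling moved the median gene to 0.02 and Slc17a8 to 0.99, quantile normalization to -0.01 and 0.76, and both ended the call of Slc17a8.

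Slc17a8 was the exception within liver. Up to E16.5 its 12 liver libraries held 0.04 to 0.14 TPM, and at P0 they held 4.11 and 3.23 TPM, and the midbrain pair of that stage held 3.32 and 3.02 TPM. It was higher at P0 than at E16.5 by 2.10 ± 0.19 (limma adjusted p = 2.79e-11), where 5.75% of all genes were called higher. The neuron markers summed to 5.48 and 7.38 TPM in the P0 liver libraries and to 5.71 and 7.11 TPM at E16.5, and no other member exceeded 0.02 TPM in liver at P0.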

How the data were processed

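RNA-seq of fetal forebrain, midbrain, hindbrain and liver was analysed from a deposited table of TPM per gene and library, as the authors made it. The submitters' processing notes name STAR 2.4.0k, RSEM 1.2.23 and mm10, without saying which step each served. Per the labels' protocols, libraries came from a stranded mRNA kit with 4 µg of RNA. TPM keeps no sequencing depth, so depth is unknown and no counting interval was given. Between 13780 and 15561 genes reached 1 TPM in a brain library, and between 12104 and 13791 in a liver library. Gene identifiers were matched to symbols and exons of GENCODE M21 (GRCm38), and 42462 of 43346 matched.

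Genes with 1 TPM in at least 2 libraries (18655) were tested on log2(TPM + 1) with limma 3.58.1 in R 4.3.3, as 31 group means over all 61 libraries, with 30 residual degrees of freedom and a mean-variance trend. The single E10.5 forebrain library takes its error from the other groups. Regions were averaged over 7 stages, E11.5 to P0. P-values were Benjamini-Hochberg adjusted within each contrast, and a call needed an adjusted p below 0.05 and a log2 fold change of 1 or more in size. The script was tested on simulated data. Ratios to neuron markers divide a TPM by the summed TPM of 5 neuron markers and are not values per neuron. Promoter windows are the 250 bases before RefSeq start sites, without exon bases.

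The members, related lists, marker lists and tests were chosen with earlier results of these data known. The text draws its names from the members, up to 3 called genes of largest fold and up to 2 uncalled genes of highest TPM per list and contrast, and the 3 genes most correlated with each member. It does not name every gene this allows. Alternatives were other pseudocounts, filters, scalings, library sets, stage assignments and a replicate block. Contrasts of library class, of single stages and within liver were added after seeing the data. Some genes of the related and marker lists are not reported here and were left out of every list count.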

Additional observations from a re-analysis of the deposited data

Results flagged for a closer look

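Between E11.5 and P0, 4 members changed to different extents in different regions, by a test of the difference itself (limma, adjusted over all genes). Slc17a6 rose less in forebrain than in midbrain, with a difference of -1.09 ± 0.22 on the log2 scale (adjusted p = 0.000426). It rose in both regions, by 1.12 and 2.21. Without forebrain P0 replicate 2 the difference was -0.73, without forebrain E11.5 replicate 2 it was -0.96, and with the unnumbered libraries at the stage of their sample record it was -0.97, none of them called. Slc32a1 rose less in forebrain than in midbrain too, by -1.115 ± 0.20 (adjusted p = 0.000103), and this was -0.74 with library class as a covariate and -0.94 at the stage of the record, neither called. The class term rests on the hindbrain P0 pair, the only group with both classes. Midbrain was of class A at E11.5 and of class B at P0, so the covariate does not separate stage from class there.

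Slc17a7 rose more in forebrain than in hindbrain, with a difference of 1.416 ± 0.31 (adjusted p = 0.000436). It was 0.71 without forebrain P0 replicate 2, the library with 60.9 TPM, and 0.89 with a pseudocount of 0.1 TPM, neither called. The rise of Slc6a5 in hindbrain had no counterpart in forebrain, where no library passed 0.17 TPM (difference -1.768 ± 0.22, adjusted p = 1.2e-07, and -1.81 to -1.73 with each library left out). Of all genes tested, 1.73% were called lower in the difference between forebrain and midbrain, and 7.96% were called either way between forebrain and hindbrain. These comparisons share the forebrain libraries.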

How the results depend on the processing

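Across 139 results and 3731 alternatives, 3613 were kept, 58 lost a call, 34 gained one, 22 counts moved and 4 reversed. A fold change was kept when its direction and side of the threshold held. A count of members called was also kept when it changed slightly. Between forebrain and hindbrain at P0, for example, it was 6, and 5 to 7 on leaving out single libraries. The reversed values were near 0: Slc17a7 between midbrain and hindbrain was -0.019 at class A stages, Slc32a1 there was 0.004 with median-of-ratios scaling and -0.075 to 0.018 with single libraries left out, and Slc17a7 in hindbrain from E16.5 to P0 was -0.037 at the stage of the sample record. The cause was not tested.

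The forebrain to midbrain difference of Slc17a6 lay at the threshold and lost its call at -0.991 (median-of-ratios), -0.98 (replicate block), -0.974 (without E15.5), -0.913 (class A stages) and -0.621 (E12.5 only), with -1.068 to -0.964 on leaving out single libraries. It was lost without forebrain E11.5 replicate 1 or P0 replicate 2. Forebrain to hindbrain gained a call without E12.5, at -1.001.

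Counts of members called moved as follows. Forebrain to midbrain on average, 4 became 2 without E15.5, 2 at class A stages and 1 at E12.5. Midbrain to hindbrain, 2 became 4 at E12.5. At P0, forebrain to midbrain went from 2 to 4 with pseudocounts of 0.1 and 0.5 TPM, and midbrain to hindbrain from 4 to 2 with either scaling, the replicate block or without the 4 libraries of doubtful stage. From E11.5 to P0, forebrain went from 3 to 6 (0.1 TPM), and midbrain from 3 to 6 (0.1 TPM), 5 (0.5 TPM) and 5 (without the doubtful libraries), with 3 to 5 on leaving out single libraries. Called differences of change between forebrain and midbrain went from 2 to 0 (stage of record) and 1 (class covariate, from the hindbrain P0 pair). Leaving out single libraries gave 1 to 3. Forebrain and hindbrain gave 1 to 2, and midbrain and hindbrain gave 0 to 1, with 1 under both scalings.

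Deviations of same-numbered libraries of different regions from their group means correlated at -0.02 to 0.164 over 16 pairs, 5 of them above 0.1. The comparison between stages, forebrain E11.5 against P0, gave 0.162. Such correlations cannot tell whether same-numbered libraries shared an animal or litter. Libraries were treated as unpaired outside the replicate block. Besides the changes above, the replicate block put Slc17a6 between forebrain and hindbrain at P0 at -0.98 (call lost) and Slc18a3 in midbrain from E11.5 to P0 at 1.09 (call gained).

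Over all genes, a pseudocount of 0.1 TPM raised the calls between regions from 510, 805 and 181 to 1077, 1709 and 467, and those at P0 from 716, 897 and 525 to 1307, 1508 and 958. Without E15.5, midbrain to hindbrain gave 327. Class A stages gave 1236 between forebrain and hindbrain. At the stage of the record, 8 (midbrain) and 2 (hindbrain) genes were called from E16.5 to P0, against 529 and 231, and 376 with the block in hindbrain. Quantile normalization moved the share of calls that were higher from 35.1% to 47.3% between forebrain and midbrain, from 24% to 39.7% between forebrain and hindbrain, from 34.7% to 46.1% and 21.9% to 33.4% for forebrain and midbrain against hindbrain at P0, and from 62.0% to 51.7% in forebrain from E11.5 to P0. Between brain and liver it fell from 82.5% to 49.3%. Depth is unknown, so no limit of detection could be given.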
